A study of Mus musculus with 8 samples.

Results

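The genes of cholesterol synthesis and of its control by the transcription factor SREBP2 are described here in cultured mouse forelimb buds. They are 26 of the 21692 genes of the deposited count table. They were chosen by gene symbol from textbook knowledge of the pathway, with earlier results of these data known. All 26 had a row and passed the filter on low counts. The list does not hold every gene of the route. The tissue was forelimb buds of CD1 mouse embryos taken on gestation day 13 and kept in culture for 24 h. The OPE group received a mixture of organophosphate esters, a class of flame retardants and plasticisers, composed to resemble Canadian house dust and diluted 1 in 300000, and the vehicle group received dimethyl sulfoxide (DMSO). Each group had 4 poly-A RNA-seq libraries, called OPE 1 to 4 and vehicle 1 to 4.

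Cells build cholesterol from acetyl-CoA. The mevalonate steps make activated isoprene units, the squalene steps join and fold them into lanosterol, and the sterol steps trim lanosterol to cholesterol. When sterol in the endoplasmic reticulum falls, the escort protein SCAP carries SREBP2 to the Golgi, where it is cleaved and freed to switch on the genes of the route. When sterol is plentiful, INSIG proteins hold SCAP back. In limbs the pathway is known because hedgehog signals carry cholesterol, and because inherited defects of DHCR7, NSDHL, EBP and LBR in humans include malformations of the limbs or skeleton.

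The counts summed to between 14986793 and 21806141 reads per OPE library and between 17549560 and 22006738 per vehicle library. The tissue was checked against its markers, which were all present. The 6 limb mesenchyme genes summed to 986 to 1112 CPM (read counts scaled to library size with TMM factors) in OPE and 1007 to 1071 CPM in vehicle libraries, and the 5 cartilage genes to 7957 to 8979 CPM in OPE and 7945 to 9443 CPM in vehicle libraries. OPE 1 and OPE 3 stood apart from OPE 2 and OPE 4, OPE 1 by its low macrophage and high stress markers and OPE 3 by higher values of short genes. Whether the 4 libraries of a group are separate litters, separate cultures or repeats of 1 culture is not stated in the labels, so the spread behind the p-values may be technical. In bulk tissue, fewer cells of a type and less RNA per cell cannot be told apart.

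The members spanned a wide range before any comparison. Per gene length (RPKM, CPM per kilobase), Fdps, the farnesyl diphosphate synthase, was the most abundant member with 140 ± 39.2 RPKM in OPE and 96.7 ± 17.4 RPKM in vehicle libraries (SD, n = 4 each). Hmgcs1, which makes HMG-CoA, followed with 89.0 ± 7.49 RPKM in OPE and 62.6 ± 5.22 RPKM in vehicle libraries. Srebf2, the gene of SREBP2 itself, had 71.4 ± 12.4 RPKM in OPE and 54.4 ± 3.07 RPKM in vehicle libraries. Acat2, the cytosolic thiolase, came next with 61.2 ± 9.46 RPKM in OPE and 47.8 ± 8.23 RPKM in vehicle libraries. In the order of vehicle levels, 19 of 25 neighbouring pairs had overlapping ranges of mean ± SD. At the low end, Hsd17b7, the ketosteroid reductase of sterol demethylation, had 6.59 ± 1.21 RPKM in OPE and 4.99 ± 0.46 RPKM in vehicle libraries. The low members Idi1, Lss, Ebp and Stard4 lay between 7.37 and 9.03 RPKM in the vehicle mean.

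**Figure D1:**
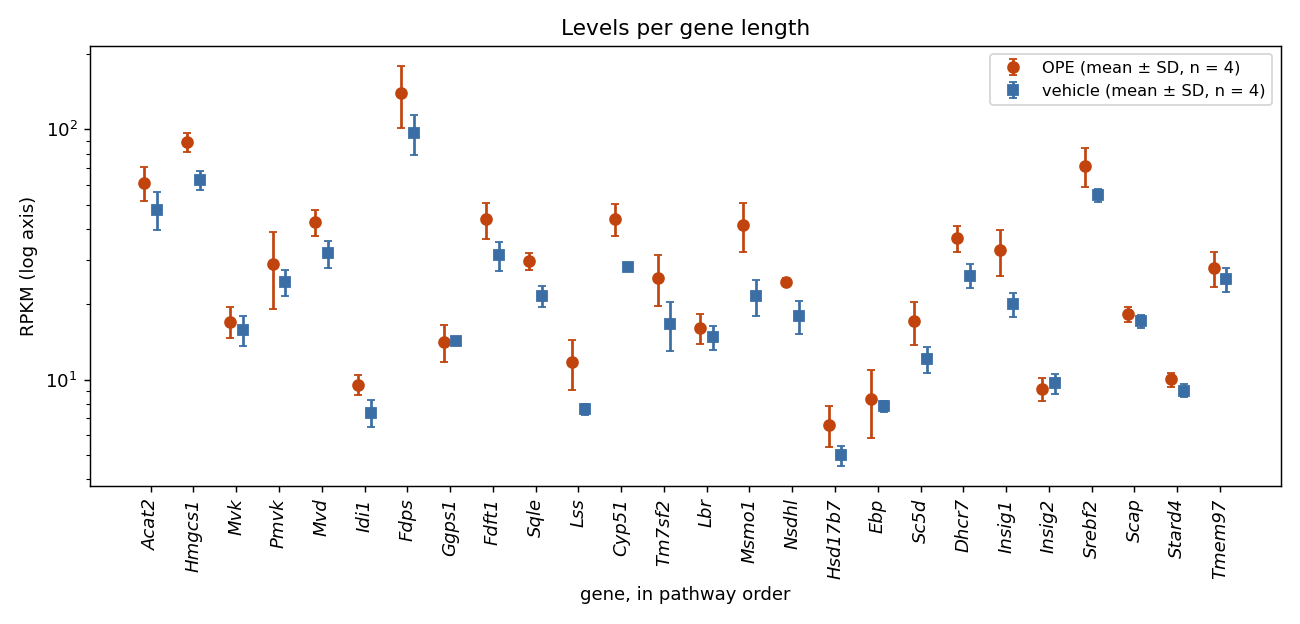
Level of each member per gene length (RPKM, log axis) in pathway order, with circles for OPE and squares for vehicle libraries and bars for the SD of 4 libraries. Fdps is highest and Hsd17b7 lowest in both groups, and the OPE and vehicle bars stand apart for Cyp51, Msmo1, Nsdhl and Hmgcs1 and run together for Mvk, Lbr, Ggps1 and Insig2.

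With OPE, 2 of the 26 members rose past an adjusted p of 0.05 and none fell (edgeR quasi-likelihood test, Benjamini-Hochberg over 15517 genes). Both encode early sterol enzymes, Msmo1 and Cyp51. Over all genes tested, 6 genes or 0.0387% rose and 68 genes or 0.438% fell. At an unadjusted p under 0.05, 17 members were higher and 0 lower with OPE, beside 5.85% of all genes higher and 7.31% lower. Of the members, 24 had a log2 fold change above 0, against 52.8% of all genes, and the member median was 0.41 against 0.01 for all genes. In 15 members all 4 OPE libraries lay above all 4 vehicle libraries, a pattern seen in 4.05% of all genes, and in 0 members did they lie below, a pattern seen in 5.44% of all genes. The summed level of the 26 members was 2227 to 2622 CPM in OPE and 1576 to 1896 CPM in vehicle libraries. The members were proposed with results of these data known, so these counts and medians are descriptions.

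**Figure D2:**
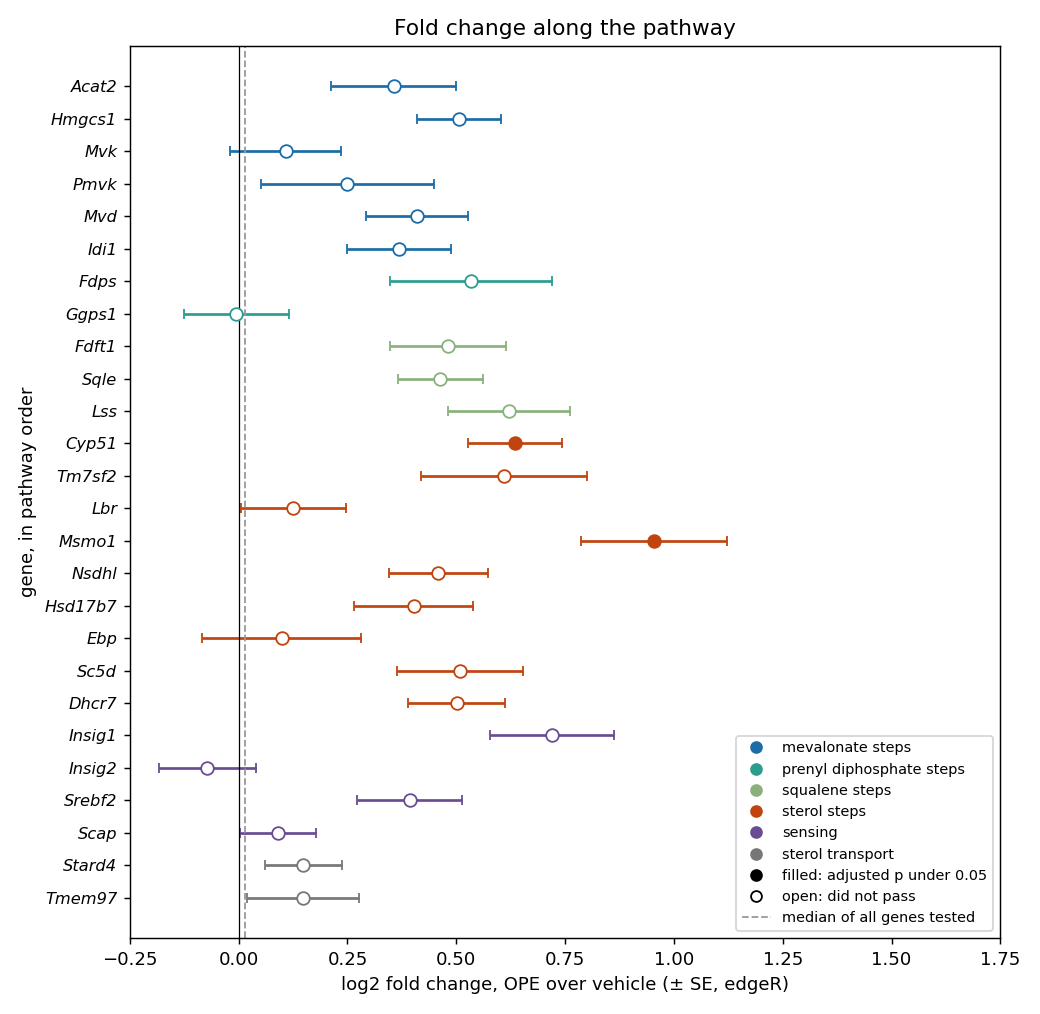
Log2 fold change of each member, OPE over vehicle, in pathway order with its standard error, coloured by role, filled where the adjusted p was under 0.05. Msmo1 at 0.95 and Cyp51 at 0.63 are filled, the squalene genes lie between 0.46 and 0.62, and Ggps1 and Insig2 lie just below 0. The dashed line is the median of all genes tested.

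The promoters of 5 members are shown because they are the 2 genes that rose, the 2 of next smallest p, and Insig2, which has the lowest fold change of the list. They were chosen with these values known. Each is the RefSeq window of 250 bases before to 50 after the start of transcription (build GRCm38.p6), written 5′ to 3′ on the gene's own strand. Capitals mark 3 motifs on either strand: the sterol regulatory element core TCACNCCAC, CCAAT (the letters bound by NF-Y) and GGGCGG (bound by SP1). The windows are chr8:64733529-64733828 minus strand for Msmo1, chr5:4104648-4104947 minus strand for Cyp51, chr5:28071162-28071461 plus strand for Insig1, chr13:119690101-119690400 plus strand for Hmgcs1 and chr1:121332540-121332839 minus strand for Insig2.
Msmo1: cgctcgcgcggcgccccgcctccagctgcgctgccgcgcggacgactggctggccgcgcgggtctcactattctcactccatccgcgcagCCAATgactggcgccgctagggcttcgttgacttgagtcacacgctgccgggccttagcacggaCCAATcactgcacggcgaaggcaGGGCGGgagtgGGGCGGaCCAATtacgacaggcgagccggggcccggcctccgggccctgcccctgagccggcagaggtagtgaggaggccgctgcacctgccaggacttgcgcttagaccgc
Cyp51: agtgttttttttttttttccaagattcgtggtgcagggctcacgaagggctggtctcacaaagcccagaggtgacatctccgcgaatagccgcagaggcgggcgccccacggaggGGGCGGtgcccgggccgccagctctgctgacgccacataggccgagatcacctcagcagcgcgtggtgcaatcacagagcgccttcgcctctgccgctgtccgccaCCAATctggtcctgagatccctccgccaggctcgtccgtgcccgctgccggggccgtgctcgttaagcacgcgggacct
Insig1: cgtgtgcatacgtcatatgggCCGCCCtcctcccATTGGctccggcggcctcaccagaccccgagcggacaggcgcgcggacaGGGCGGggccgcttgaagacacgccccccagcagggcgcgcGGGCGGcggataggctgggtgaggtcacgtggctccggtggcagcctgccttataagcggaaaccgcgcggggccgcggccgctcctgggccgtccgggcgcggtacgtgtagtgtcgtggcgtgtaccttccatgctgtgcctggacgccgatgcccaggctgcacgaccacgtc
Hmgcs1: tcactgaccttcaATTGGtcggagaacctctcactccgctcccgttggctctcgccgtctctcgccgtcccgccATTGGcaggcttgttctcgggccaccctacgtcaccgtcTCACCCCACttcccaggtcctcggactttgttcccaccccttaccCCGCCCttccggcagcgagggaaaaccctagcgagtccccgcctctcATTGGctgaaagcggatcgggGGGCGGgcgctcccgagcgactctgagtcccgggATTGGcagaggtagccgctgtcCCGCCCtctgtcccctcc
Insig2: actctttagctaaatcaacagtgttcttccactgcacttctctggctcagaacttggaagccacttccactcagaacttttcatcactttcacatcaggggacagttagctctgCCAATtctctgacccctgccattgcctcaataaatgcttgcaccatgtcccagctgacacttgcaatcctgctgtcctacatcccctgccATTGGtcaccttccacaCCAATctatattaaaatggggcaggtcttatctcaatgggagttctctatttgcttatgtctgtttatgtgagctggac

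In these windows Hmgcs1 holds the only sterol regulatory core of the 5, TCACCCCAC, beginning 137 bases before the start, together with 4 CCAAT and 3 GGGCGG matches. Msmo1 holds 3 CCAAT and 2 GGGCGG matches within 160 bases before the start, where 1 CCAAT follows a GGGCGG after 1 base. Cyp51 has 1 of each, Insig1 has 1 CCAAT and 3 GGGCGG, and Insig2 has 3 CCAAT and 0 GGGCGG in this window. The Insig2 window shown is 1 of 3 that RefSeq lists, the nearest to the gene start in the deposited table, and the other windows hold 1 GGGCGG each. RefSeq promoters were matched for 22 members, and Fdps, Fdft1, Sqle and Stard4 were not matched. CCAAT was found for 20 of the 22 members (90.9%), against 42.1% of 11070 tested genes and 41.1% of all genes with a promoter. GGGCGG was also found for 20 of 22 members, against 67.7% of tested genes and 38.2% of all genes with a promoter. The core TCACNCCAC was found for 1 of 22 members (4.55%), against 1.46% of tested genes and 1.44% of all genes with a promoter. A stricter and longer form of the element was found for 0 of 22, against 0.0723% of tested genes and 0.0999% of all genes with a promoter, and every match of the longer form is also a match of the core. A match is a description of the letters and says nothing of binding, and a window without a match says only that those letters are not in it.

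The mevalonate steps had 6 members, all with a log2 fold change above 0 (median 0.36) and none past the threshold over all genes. Hmgcs1 had 297, 264, 318 and 272 CPM in OPE 1 to 4, against 180, 200, 220 and 210 CPM in vehicle 1 to 4. The groups did not overlap, and the lowest OPE value was 264 CPM beside a highest vehicle value of 220 CPM. Its log2 fold change was 0.51 ± 0.10 (SE, edgeR adjusted p = 0.0522). Mvd, which decarboxylates the mevalonate product to the first isoprene unit, had 76.4, 68.6, 86.5 and 67.4 CPM in OPE 1 to 4, against 45.9, 60.3, 59.3 and 59.3 CPM in vehicle 1 to 4. All OPE values were above all vehicle values, with vehicle 1 apart at the low end (log2 fold change 0.41 ± 0.12, edgeR adjusted p = 0.158). Idi1, the isomerase that gives the second form of that unit, had 32.2, 27.0, 26.4 and 29.6 CPM in OPE 1 to 4, against 18.7, 21.4, 25.1 and 24.0 CPM in vehicle 1 to 4. Its groups were separated by little, since OPE 3 was close to vehicle 3 (log2 fold change 0.37 ± 0.12, edgeR adjusted p = 0.207). Acat2, the thiolase of the first step, gave 0.36 ± 0.14, and the kinase genes Mvk and Pmvk gave 0.11 ± 0.13 and 0.25 ± 0.20, all with overlapping groups (edgeR adjusted p = 0.315, 0.795 and 0.656). Acat2 spanned 118 to 167 CPM in OPE and 81.9 to 126 CPM in vehicle libraries, Mvk 37.4 to 49.0 CPM in OPE and 30.5 to 42.5 CPM in vehicle libraries, and Pmvk 24.8 to 51.9 CPM in OPE and 25.9 to 33.7 CPM in vehicle libraries. Mvk lies head to head with Mmab, a gene of vitamin B12 metabolism, with 209 bases between their starts, and Mmab gave 0.05 ± 0.10 (edgeR adjusted p = 0.901). Acat3, the near copy beside Acat2, reached at most 0.96 CPM in any library, and Idi2, the copy beside Idi1, held 1 read in all.

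At the branch point, Fdps and Ggps1 went apart in value. Fdps had 148, 155, 246 and 146 CPM in OPE 1 to 4, against 87.6, 132, 128 and 132 CPM in vehicle 1 to 4. OPE 3 was far above the other OPE libraries and vehicle 1 far below the other vehicle libraries, and the groups did not overlap (log2 fold change 0.53 ± 0.19, edgeR adjusted p = 0.242). Without OPE 3 the log2 fold change of Fdps was 0.32. Ggps1, whose product leads away from sterols to the prenylation of proteins, had 34.8, 31.4, 27.1 and 40.4 CPM in OPE 1 to 4, against 33.2, 34.3, 34.1 and 32.8 CPM in vehicle 1 to 4. The OPE values spread to both sides of the narrow vehicle range (log2 fold change -0.01 ± 0.12, edgeR adjusted p = 0.993). The difference between the 2 genes was not tested. Ggps1 overlaps Arid4b on the other strand over 170 bases, and Arid4b held 228% of its reads.

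In the 3 squalene genes all OPE libraries lay above all vehicle libraries, a pattern seen in 4.05% of all genes. None of the 3 passed the threshold over all genes. Fdft1, the squalene synthase, had 130, 114, 152 and 105 CPM in OPE 1 to 4, against 73.2, 101, 91.3 and 92.99 CPM in vehicle 1 to 4. OPE 4 was only just above vehicle 2 (log2 fold change 0.48 ± 0.13, edgeR adjusted p = 0.148). Sqle, the squalene epoxidase, had 147, 127, 135 and 122 CPM in OPE 1 to 4, against 83.8, 95.7, 103 and 103 CPM in vehicle 1 to 4. Every OPE library was well clear of every vehicle library (log2 fold change 0.46 ± 0.10, edgeR adjusted p = 0.066). Lss, the cyclase that closes the rings of lanosterol, had 108, 81.1, 68.0 and 70.2 CPM in OPE 1 to 4, against 51.3, 50.7, 55.6 and 55.6 CPM in vehicle 1 to 4. OPE 1 was the highest by a wide margin and the vehicle libraries were close together (log2 fold change 0.62 ± 0.14, edgeR adjusted p = 0.0828). The value of Fdft1 is uncertain, because it overlaps Ctsb, a lysosomal protease gene, on the other strand over 767 bases and Ctsb held 398% of its reads. No source used here says if reads were assigned by strand. Ctsb did not pass (edgeR adjusted p = 0.575).

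The sterol steps held both genes that rose. Msmo1 is the oxidase that acts after Cyp51 in the removal of methyl groups (chromosome 8, 64718139 to 64733792, mm10). Msmo1 had 138, 106, 155 and 96.5 CPM in OPE 1 to 4, against 48.4, 72.7, 66.3 and 67.7 CPM in vehicle 1 to 4. The lowest OPE library was above the highest vehicle library, OPE 1 and OPE 3 were the highest and vehicle 1 the lowest. It rose by 0.95 ± 0.17 on the log2 scale, a 1.94-fold change (edgeR adjusted p = 0.0388). Cyp51, the lanosterol demethylase (chromosome 5, 4081145 to 4104746, mm10), had 201, 148, 186 and 155 CPM in OPE 1 to 4, against 106, 113, 114 and 111 CPM in vehicle 1 to 4. The vehicle libraries were within a narrow band and all OPE libraries were above it. It rose by 0.63 ± 0.11 on the log2 scale, a 1.55-fold change (edgeR adjusted p = 0.0388). Leaving out OPE 1, OPE 2 or any vehicle library ended both calls, with edgeR adjusted p from 0.0529 to 0.126, while the log2 fold changes stayed between 0.83 and 1.05 for Msmo1 and between 0.54 and 0.70 for Cyp51. A fit with the replicate number as a further term also ended both calls (edgeR adjusted p = 0.0632 for Msmo1 and 0.0564 for Cyp51). Without OPE 1 and OPE 3 together, Msmo1 gave 0.66 (edgeR adjusted p = 0.0664) and Cyp51 gave 0.45 (edgeR adjusted p = 0.0197).

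**Figure D3:**
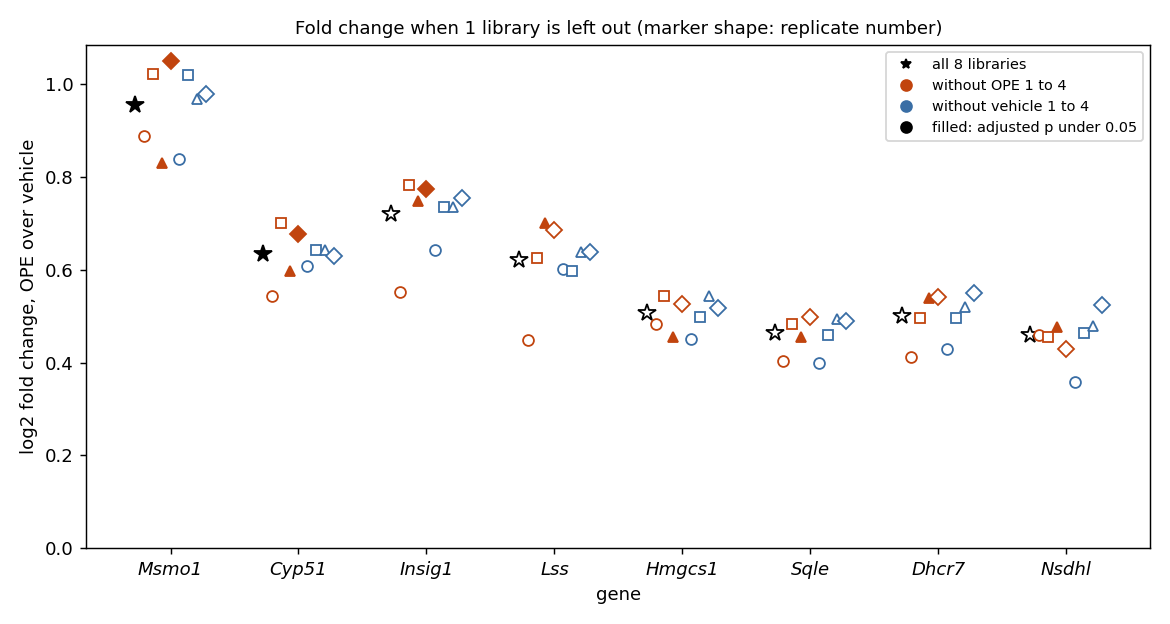
Log2 fold change of the 8 members of smallest p, from all 8 libraries (star) and with 1 library left out (red without an OPE library, blue without a vehicle library, shape by replicate number), filled where the adjusted p was under 0.05. The lowest point is 0.36, for Nsdhl without vehicle 1. Without OPE 3 all 8 genes are filled, without OPE 4 Msmo1, Cyp51 and Insig1 are, and no other left-out fit is filled.

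Of the other 7 sterol enzymes, none passed and all had a log2 fold change above 0. Dhcr7, the last reductase of 1 of the routes to cholesterol, had 121, 105, 95.3 and 94.2 CPM in OPE 1 to 4, against 62.5, 72.7, 76.9 and 81.2 CPM in vehicle 1 to 4. The groups were apart (log2 fold change 0.50 ± 0.11, edgeR adjusted p = 0.0801). Nsdhl, the decarboxylating dehydrogenase that acts after Msmo1, had 52.3, 53.6, 51.3 and 55.9 CPM in OPE 1 to 4, against 30.6, 39.3, 40.7 and 44.2 CPM in vehicle 1 to 4. Its OPE libraries were the most alike of the named members while vehicle 1 was low (log2 fold change 0.46 ± 0.11, edgeR adjusted p = 0.103). Sc5d, the sterol desaturase, had 48.9, 34.9, 31.5 and 38.5 CPM in OPE 1 to 4, against 23.9, 24.8, 29.8 and 29.8 CPM in vehicle 1 to 4. OPE 3 was just above the vehicle range and OPE 1 far above it (log2 fold change 0.51 ± 0.14, edgeR adjusted p = 0.158).

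A pair of enzymes reduces the same double bond after Cyp51. Tm7sf2 had 37.1, 34.1, 50.7 and 30.8 CPM in OPE 1 to 4, against 16.99, 27.1, 26.2 and 29.6 CPM in vehicle 1 to 4. The groups did not overlap, with OPE 4 close to vehicle 4 (log2 fold change 0.61 ± 0.19, edgeR adjusted p = 0.191). Lbr, which is also the lamin B receptor of the nuclear envelope, had 62.3, 48.0, 64.9 and 53.0 CPM in OPE 1 to 4, against 55.1, 43.7, 55.2 and 55.3 CPM in vehicle 1 to 4. Its groups overlapped (log2 fold change 0.13 ± 0.12, edgeR adjusted p = 0.739), and the difference between the 2 genes was not tested. Tm7sf2 overlaps Vps51 on its own strand over 532 bases, and Vps51 held 136% of its reads without passing itself (edgeR adjusted p = 0.956). Hsd17b7 and Ebp, the sterol isomerase, gave 0.40 ± 0.14 and 0.10 ± 0.18, with overlapping groups (edgeR adjusted p = 0.228 and 0.882). Hsd17b7 spanned 25.4 to 37.8 CPM in OPE and 20.7 to 25.6 CPM in vehicle libraries, so that only OPE 2 lay inside the vehicle range. Ebp spanned 11.7 to 21.2 CPM in OPE and 12.8 to 14.48 CPM in vehicle libraries.

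Among the 4 sensing genes, Insig1 had the largest difference. It had 116, 76.9, 83.6 and 77.8 CPM in OPE 1 to 4, against 45.4, 55.7, 56.2 and 58.1 CPM in vehicle 1 to 4. All OPE libraries were above all vehicle libraries, OPE 1 by far (log2 fold change 0.72 ± 0.14, edgeR adjusted p = 0.0535). Insig2, the second gene for a protein that holds SCAP back, had 23.9, 23.2, 28.6 and 23.4 CPM in OPE 1 to 4, against 28.7, 25.1, 27.0 and 23.3 CPM in vehicle 1 to 4. Its groups overlapped throughout (log2 fold change -0.07 ± 0.11, edgeR adjusted p = 0.854). Srebf2 had 446, 335, 303 and 342 CPM in OPE 1 to 4, against 270, 256, 268 and 292 CPM in vehicle 1 to 4. The groups did not overlap, with OPE 3 close to vehicle 4 (log2 fold change 0.39 ± 0.12, edgeR adjusted p = 0.184). Without OPE 1 the log2 fold change of Srebf2 was 0.26. Scap, with 70.4 to 84.1 CPM in OPE and 68.1 to 76.7 CPM in vehicle libraries, gave 0.09 ± 0.09 (edgeR adjusted p = 0.742). The remaining members Stard4, a soluble protein that moves cholesterol between membranes, and Tmem97, a sterol-regulated membrane protein, gave 0.15 ± 0.09 and 0.15 ± 0.13 (edgeR adjusted p = 0.514 and 0.703). Stard4 spanned 47.0 to 54.6 CPM in OPE and 42.6 to 49.1 CPM in vehicle libraries, and Tmem97 34.0 to 47.1 CPM in OPE and 29.6 to 38.7 CPM in vehicle libraries.

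The libraries of a group were not alike. The member median relative to the vehicle mean, on the log2 scale, was 0.45, 0.30, 0.44 and 0.33 in OPE 1 to 4 and -0.18, 0.03, 0.07 and 0.09 in vehicle 1 to 4. Vehicle 1 was the lowest vehicle library in 19 of the 26 members. OPE 3 was the highest OPE library in 13 members and OPE 1 in 10. Gene length went with which of them was highest. Of the 13 members shorter than 2756 bases, the median length of the list, OPE 3 was highest in 9 and OPE 1 in 2, and of the 13 longer ones OPE 3 was highest in 4 and OPE 1 in 8. The shorter members had medians of 0.16, 0.26, 0.63 and 0.27 in OPE 1 to 4, and the longer ones 0.56, 0.36, 0.35 and 0.37. All genes tested below that length had a median of 0.27 in OPE 3 and -0.05 in OPE 1, and those above it -0.15 in OPE 3 and 0.04 in OPE 1. When each library's trend on gene length was removed, 11 members passed, all higher (adjusted p, edgeR), beside 0.973% of all genes higher. The 2 that rose were among them, with Insig1, Hmgcs1, Sqle, Lss, Dhcr7, Nsdhl, Fdft1, Mvd and Srebf2.

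**Figure D4:**
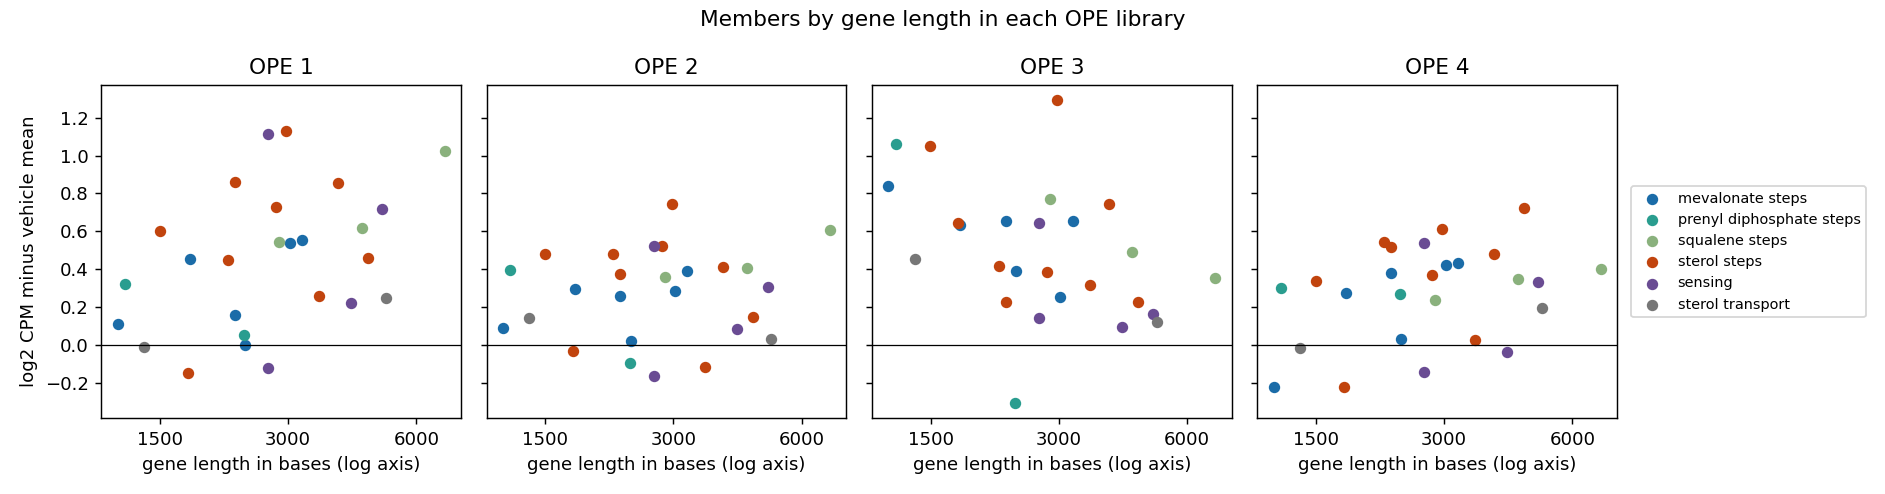
Log2 CPM of each member relative to the vehicle mean against gene length (log axis), 1 panel for each OPE library, coloured by role. In OPE 3 the members under 2756 bases have a median of 0.63 and the longer ones 0.35, and in OPE 1 the shorter ones have 0.16 and the longer ones 0.56, with Msmo1 the highest point in both.

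**Figure D5:**
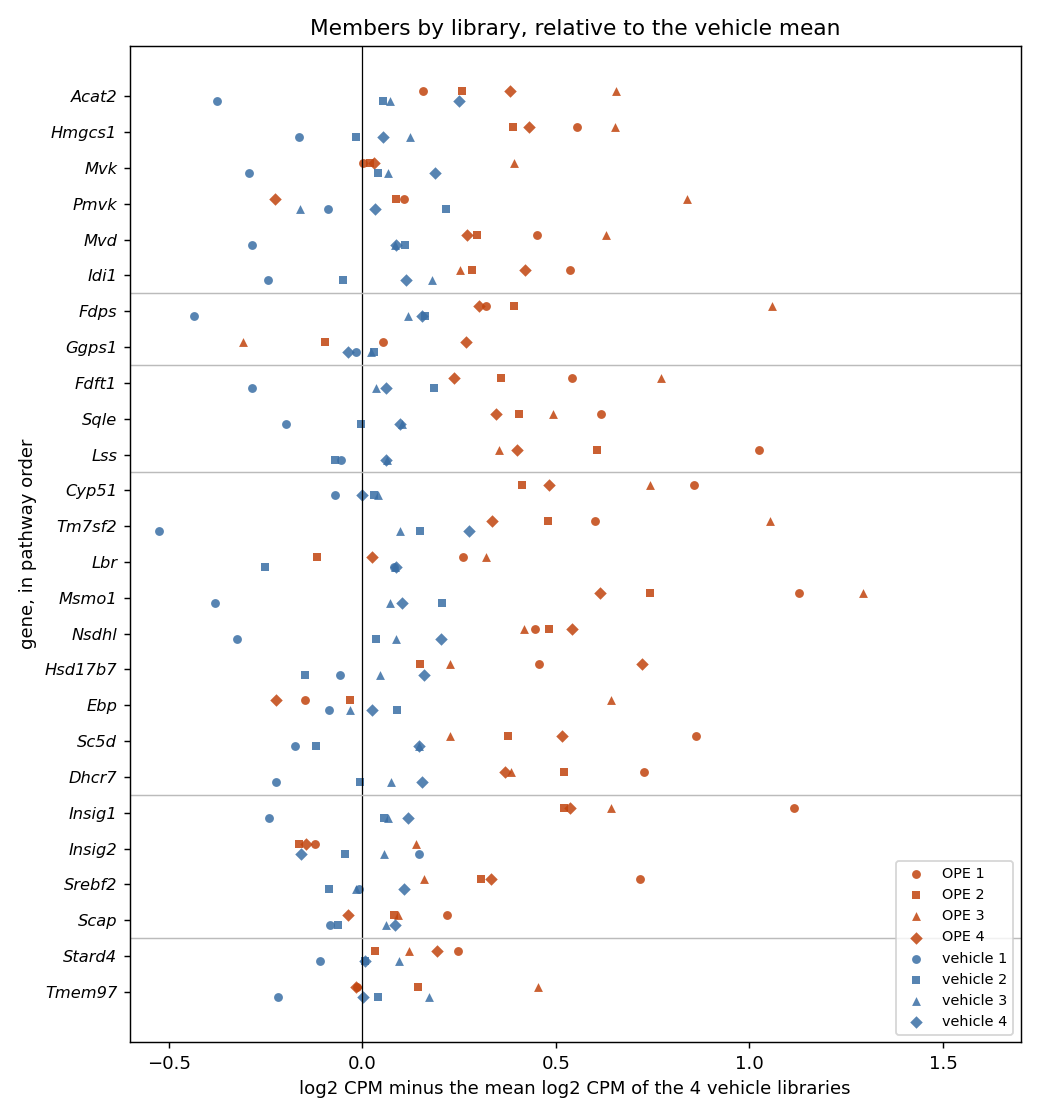
Log2 CPM of each member relative to the mean of the 4 vehicle libraries, in pathway order, red for OPE and blue for vehicle, with 1 marker shape for each replicate number. Vehicle 1 is the lowest vehicle library in 19 of 26 members, and the highest OPE point belongs to OPE 3 in 13 and to OPE 1 in 10.

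The authors' deposited table gives adjusted p-values under 0.05 for 9 of the 26 members, all higher with OPE, beside 0.878% of its 17759 genes with an adjusted p, and 0 lower, beside 1.8%. In the authors' deposited table Msmo1 has a log2 fold change of 0.77 (adjusted p = 3.94e-05), Cyp51 0.57 (adjusted p = 4.39e-05) and Hmgcs1 0.47 (adjusted p = 0.000173). The other 6 in the authors' deposited table are Insig1, Sqle, Lss, Dhcr7, Nsdhl and Fdft1, with log2 fold changes from 0.41 to 0.61. DESeq2 run on the same counts passed the same 9 members, beside 1.04% of all genes higher. Its log2 fold changes were larger than the deposited ones, with 0.96 for Msmo1, 0.64 for Cyp51 and 0.51 for Hmgcs1. The reason for this difference was not tested.

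How many members passed depended on the libraries and on the tool, and every member that passed in any fit was higher with OPE. Without OPE 3, 10 members passed, beside 0.518% of all genes higher, and these were Msmo1, Cyp51, Hmgcs1, Insig1, Sqle, Lss, Dhcr7, Nsdhl, Sc5d and Srebf2. The same 10 passed with limma-voom and sample weights, beside 0.851% higher. Without OPE 4, Cyp51, Msmo1 and Insig1 passed, beside 0.304% higher. Without both OPE 1 and OPE 3, Lss, Cyp51 and Insig1 passed, beside 0.144% higher, and the member median was 0.32. In that fit the log2 fold change was 0.29 for Fdft1 and 0.38 for Tm7sf2. Msmo1, Cyp51, Hmgcs1 and Insig1 passed with the newer quasi-likelihood method, beside 0.122% higher, and when all genes with a read were kept, beside 0.115% higher. With edgeR 0 members passed without OPE 1, beside 0.0958% of all genes higher. With edgeR 0 members also passed without OPE 2, beside 0.00634% higher, and without vehicle 1, 2, 3 or 4, beside 0.00633%, 0.0064%, 0.0064% and 0.00639% higher.

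Genes around the route were looked at in lists written from textbook knowledge, with earlier results of these data known. In the list for cleavage of SREBP and sterol-regulated degradation, none of 10 genes passed and the median log2 fold change was 0.02. Rnf145, a ubiquitin ligase known in mouse liver as a target of liver X receptors, had 107, 115, 107 and 124 CPM in OPE 1 to 4, against 176, 146, 148 and 143 CPM in vehicle 1 to 4. All OPE libraries were below all vehicle libraries (log2 fold change -0.44 ± 0.10, edgeR adjusted p = 0.0724). The protease gene Mbtps1, which makes the first cleavage of SREBP, gave -0.18 ± 0.10 (edgeR adjusted p = 0.498). Of 15 genes of the isoprenoid branches to dolichol, ubiquinone and prenylated proteins none passed (median 0.06), with Pdss1 at -0.37 ± 0.15, Rabggta at 0.26 ± 0.12 and Nus1 at 0.15 ± 0.09 those of smallest p (edgeR adjusted p = 0.321, 0.373 and 0.519). Of 6 electron donors and partners of the sterol enzymes found in the table none passed (median 0.13), with Erg28, a scaffold of sterol enzymes, at 0.27 ± 0.12, Cyb5r3 at -0.20 ± 0.10 and Pgrmc1 at 0.23 ± 0.13 (edgeR adjusted p = 0.38, 0.406 and 0.466).

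Acetyl-CoA supply and neighbouring genes had none of 8 past the threshold (median 0.15). Aacs, which makes acetoacetyl-CoA from ketone bodies, had 54.7, 47.5, 51.3 and 44.7 CPM in OPE 1 to 4, against 36.5, 38.8, 37.0 and 41.9 CPM in vehicle 1 to 4. The groups did not overlap (log2 fold change 0.36 ± 0.10, edgeR adjusted p = 0.127). Pcyt2, of phosphatidylethanolamine synthesis, gave 0.34 ± 0.14 (edgeR adjusted p = 0.314). For sterol uptake, traffic and storage none of 15 genes passed (median 0.11). Soat2, which esterifies cholesterol in liver and gut, was near the floor, with 2.17, 1.59, 0.97 and 0.67 CPM in OPE 1 to 4, against 0.11, 0.61, 0.42 and 0.09 CPM in vehicle 1 to 4. The OPE libraries were all higher, OPE 1 the most (log2 fold change 2.13 ± 0.56, edgeR adjusted p = 0.128). Npc2, which hands cholesterol on in lysosomes, gave 0.44 ± 0.16, and Gramd1b, a carrier of cholesterol from the plasma membrane, -0.40 ± 0.15 (edgeR adjusted p = 0.253 and 0.266).

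The fatty acid genes under SREBP1, the sister factor, had 11 of 12 tested and none past the threshold, with a median of -0.01 and values from -0.14 for Srebf1 to 0.38 for Scd1. The desaturase genes of smallest p were Fads1 at 0.29 ± 0.11, Scd2 at 0.22 ± 0.10 and Scd1 at 0.38 ± 0.18 (edgeR adjusted p = 0.29, 0.388 and 0.402). The liver X receptor list holds genes of these receptors, which respond to oxidised sterols, and of their targets. In this list 1 of 7 genes fell, beside 0.438% of all genes. Its median log2 fold change was -0.03, with 3 genes above 0 and 4 below. Abcg1, a cholesterol exporter, had 5.49, 8.07, 6.80 and 10.5 CPM in OPE 1 to 4, against 24.4, 26.6, 24.5 and 21.6 CPM in vehicle 1 to 4. All OPE libraries were far below the vehicle libraries (log2 fold change -1.66 ± 0.18, edgeR adjusted p = 0.0053). Abca1, the other exporter, gave -0.68 ± 0.13 with groups that did not overlap (edgeR adjusted p = 0.0544). Nr1h3, a receptor gene of the list, gave -0.55 ± 0.24 with overlapping groups and did not pass (edgeR adjusted p = 0.361). Without OPE 3 it gave -0.83 (edgeR adjusted p = 0.0424), in a fit where 226 of 15824 genes fell, against 68 of 15517 with all libraries. The difference between these lists and the members was not tested.

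Other signals moved between the same groups. All 10 macrophage markers were below 0 in log2 fold change, against 7328 of all 15517 genes tested. Of these markers 7 fell past the threshold, beside 0.438% of all genes, and none was at 0 reads. The macrophage markers summed to 21.1 to 65.2 CPM in OPE and 148 to 182 CPM in vehicle libraries. The 5 endothelial markers, none past the threshold, summed to 99.6 to 199 CPM in OPE and 227 to 278 CPM in vehicle libraries. The 6 stress response markers were all above 0, against 52.8% of all genes, and 1 rose (Gdf15), beside 0.0387% of all genes. The stress markers summed to 475 to 949 CPM in OPE and 326 to 387 CPM in vehicle libraries, with OPE 1 the highest. The liver markers Alb and Afp were looked for, but no row was found for them. Ttr had 10 reads over the OPE and 6 over the vehicle libraries. Apoa1 fell by 2.22 on the log2 scale (edgeR adjusted p = 0.0452), with 0.20 to 0.83 CPM in OPE and 1.36 to 2.55 CPM in vehicle libraries. No gene of the ectoderm, muscle, Schwann cell or erythroid lists passed, and the erythroid genes summed to 454 to 1155 CPM in OPE, highest in OPE 3, and 391 to 586 CPM in vehicle libraries. The part of these signals in the values of the members and of the genes around the route, Abcg1 included, was not tested.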

How the data were processed

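Poly-A RNA of cultured forelimb buds was sequenced in 8 libraries, 4 OPE and 4 vehicle, grouped by their titles. Tools named without roles, per the submitters' processing notes, were STAR 2.5, HTSeq 0.6.1, CASAVA 1.8 and DESeq2 (version given as 2), with the build mm10. The authors deposited raw read counts per gene, a signal column of counts divided by a size factor (0.80311 to 1.2451), FPKM values, and log2 fold changes with p-values. The deposited counts alone were tested. Counts were fitted with edgeR 4.0.16 in R 4.3.3 (TMM, filterByExpr, robust quasi-likelihood, group as the only term, two-sided). Of 21692 genes 15517 were tested. The standard error is the log2 fold change divided by the square root of F. RPKM divides CPM by the deposited gene length. Libraries of a group differed by more than sampling noise (lowest chi-square over its degrees of freedom 5.03), and each was counted once. Steps were tested on simulated data. Members and lists were chosen with earlier results of these data known. Values in every library are given for the members past the threshold, then those of smallest p up to 14, and those with a fold change below 0, and for Fdps and Lbr, added after their values were seen; of each list, up to 3 of smallest p, where the results of 2 list genes are not reported here. Overlaps between genes use the deposited coordinates. Alternatives were other scalings and filters, DESeq2 1.42.0, limma 3.58.1 with voom, the newer quasi-likelihood method, a fit that is not robust, the replicate block, removal of the gene-length trend, and leaving out libraries.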

Additional observations from a re-analysis of the deposited data

Results flagged for a closer look

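In 6 of 52 groups of 4 libraries (26 members in both groups) 1 library lay far from the other 3, where chance gives about 1 in 20, or 2.6. The members share the same libraries, so the groups are not independent and 6 against 2.6 is not a test. OPE 3 was apart on the high side for Fdps (246 CPM), Mvk (49.0 CPM) and Insig2 (28.6 CPM). Vehicle 1 was apart on the low side for Fdps (87.6 CPM) and Mvd (45.9 CPM), and vehicle 2 for Lbr (43.7 CPM).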

How the results depend on the processing

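The count of all genes past the threshold was 74 and the count of members 2, and both moved with the settings. With library totals all genes gave 131, with at least 1 read in any library 136 (members 4), with the newer quasi-likelihood method 112 (members 4), with DESeq2 504 (members 9), with limma-voom and sample weights 478 (members 10), and with the gene-length trend removed 322 (members 11). Leaving out 1 library gave 7 to 308 genes and 0 to 10 members, where 0 members passed without OPE 1, OPE 2 or any vehicle library. The replicate block gave 62 genes and 0 members, with edgeR adjusted p of 0.0564 for Cyp51 and 0.0632 for Msmo1. Deviations of same-numbered libraries correlated by 0.309, 0.0818, 0.0126 and 0.0918 for numbers 1 to 4, and OPE 3 correlated best with vehicle 2 (0.361). These correlations cannot settle whether same-numbered libraries are paired, and the labels do not say what the number marks. The median of the members stayed between 0.32 and 0.47 over all 21 alternatives. No member passed in the lower direction in any of them. Of 546 member values under alternatives, 477 kept direction and side of the threshold, 41 newly passed, 15 no longer passed and 13 changed sign without passing. The sign changed for Ggps1 with sample weights (0.0224), without the length trend (0.02998) and without OPE 1 and OPE 3 (0.09914), for Ebp with sample weights (-0.08001) and without OPE 1 and OPE 3 (-0.1241), for Pmvk without OPE 1 and OPE 3 (-0.0656), for Mvk with sample weights (-0.0268) and for Lbr without OPE 1 and OPE 3 (-0.04935). Leaving out 1 library gave -0.1119 to 0.08214 for Ggps1, above 0 without OPE 2, OPE 3 or vehicle 2, -0.1342 to 0.1839 for Ebp and -0.007232 to 0.3715 for Pmvk, both below 0 without OPE 3. With the strict sterol regulatory element 0 member promoters matched. The cause of these shifts was not tested. Every member was above 10 CPM in every library, while Soat2 was under 5 CPM in every library, where depth limits its value.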
